A study of Mus musculus with 4 samples.

Results

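The cells described here carried transcripts of Clca3b, Cps1, Ifitm3 and Stmn1 together and had UMIs of few of the cell cycle genes that were counted. A cell was a member if fewer than 20% of its UMIs (unique molecular identifiers, each standing for 1 captured transcript) came from alpha-defensin genes (symbols starting with Defa), if it had at least 1 UMI of each of the 4 genes, and if fewer than 5 of 8 genes of mitosis and fewer than 5 of 8 genes of DNA replication had a UMI in it. This gave 300 members among 26498 cells (1.13%). They came from 4 single cell libraries of live EpCAM+ CD45- epithelial cells, sorted from small intestinal crypts of mice aged 8 weeks and profiled with droplet reagents (10x Genomics) that read the 3′ end. In 2 libraries labelled Slc7a5 fl/fl, exon 1 of the amino acid transporter gene Slc7a5 was flanked by loxP sites on both alleles. In 2 libraries labelled Slc7a5 IEC-KO, the same floxed mice also carried Cre recombinase under the villin promoter, which is active in the intestinal epithelium, so that the exon is deleted in these cells. In all, 4 mice are recorded, with no assignment to libraries, so replicate spread here may or may not include differences between animals, and the p-values hold for these libraries. The libraries labelled fl/fl held 3633 and 3217 cells with 113529509 and 119339206 UMIs, and those labelled IEC-KO held 10004 and 9644 cells with 87922473 and 127094508 UMIs. The members numbered 39 and 36 in the former and 103 and 122 in the latter. Their median totals were 11981 and 12840.5 UMIs in the libraries labelled fl/fl against 5547 and 10107 in those labelled IEC-KO.

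In the intestinal crypt, stem cells at the base give rise to dividing progenitors, which take either the absorptive fate (enterocytes, with Notch signalling and Hes1) or the secretory fate (goblet, Paneth, enteroendocrine and tuft cells, with Atoh1). Cps1 encodes the mitochondrial carbamoyl phosphate synthetase that feeds citrulline synthesis, and in the small intestine it is made from the crypt onwards. Clca3b encodes a member of the family of calcium-activated chloride channel regulators. Ifitm3 encodes a membrane protein that restricts virus entry and is known to be high in crypt base cells. Stmn1 encodes stathmin, which destabilises microtubules and is high in dividing and recently dividing cells. ATF4 is the transcription factor of the amino acid response: when amino acids are scarce, the kinase GCN2 raises its translation, and ATF4 then induces genes of amino acid synthesis and import and of stress signalling.

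The 4 genes chose the members, so their levels are a description. Most members rested on few molecules: 207 of the 300 had a single UMI of at least 1 of the 4 genes, and 13 had a single UMI of each. Levels in raw CPM below are a gene's share of all UMIs of the same cells, brought to a common total of UMIs and not scaled further. Clca3b was counted at 162 and 145 raw CPM in the members of the libraries labelled fl/fl and at 265 and 166 in those labelled IEC-KO. In the cells with Defa% under 20 that lacked at least 1 of the 4 genes, its level was at most 29.9 raw CPM. Cps1 stood at 300.1, 348, 355 and 269 raw CPM in the members of the 4 libraries in the same order, and Stmn1 at 395, 350, 632 and 410. Ifitm3 had the widest range of the 4, with 261 and 303 raw CPM in the libraries labelled fl/fl and 818 and 429 in those labelled IEC-KO.

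Genes outside the rule also stood higher in the members than in those other cells, and the ranking covers the 2268 genes with a UMI in at least 25% of the members of every library. Among 20 leading genes by the mean over libraries of the log2 difference in raw CPM plus 10, Amica1, which encodes an adhesion molecule, had a mean of 2.24, and Cdca7, a target of MYC and a stem cell marker, 1.81. Hmgn1, a nucleosome-binding protein of open chromatin, had 1.75, Sox4, a transcription factor of progenitor cells, 1.48, and Shmt1, the cytosolic enzyme of serine and glycine exchange, 1.34. Mcm7, a subunit of the replicative helicase, had 1.14, and Apex1, an endonuclease of DNA repair, 1.36. Hells, a chromatin remodeller, and Lig1, a DNA ligase, had 1.38 and 1.12, but both are among the 8 replication genes that the rule counts. The MHC class II genes H2-Eb1 and Cd74 had 1.38 and 1.30, and the vitamin D receptor Vdr 1.12. Each of these genes was higher in the members than in those other cells in all 4 libraries. Among the lowest of the ranked genes, which leaves out genes scarce in the members, were the goblet genes Zg16 (mean log2 difference -1.29), Agr2 (-1.07) and Tff3 (-1.04). Against the cells with all 4 genes that failed a cycling limit (607 cells, here called cycling counterparts), the members had less Stmn1, 395 and 350 against 934 and 836 raw CPM in the libraries labelled fl/fl and 632 and 410 against 833 and 761 in those labelled IEC-KO. The limits count genes with a UMI and do not show that a member was out of the cell cycle: only 17 of the 300 had no UMI of any of the 16 genes. The 28 cell cycle genes outside the rule summed to 3210, 2810, 3834 and 3068 raw CPM in the members of the 4 libraries. They summed to 6597, 6773, 6383 and 5483 in the cycling counterparts and to 615, 591, 934 and 948 in cells with Defa% of 20 or more, so the members lay between them in each library. Of the leading genes outside the rule, Amica1, Cnn3, Sox4, Apex1, Fgfbp1, Mcm7 and Cd81 were lower in the members than in the counterparts in all 4 libraries, with log2 differences of -1.26, -1.11, -0.04 and -0.63 for Amica1 and -0.82, -1.23, -0.20 and -0.85 for Sox4.

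The working label of these cells, absorptive progenitors, was set against the markers, and many members were rich in goblet transcripts. The 26 goblet markers took between 1.49% and 23.2% of a member's UMIs, and the members fell into a low and a high set with few cells between: 0, 2, 8 and 7 members of the 4 libraries had a share of 4% to 6%. In 158 of the 300 (52.7%) they took at least 5%, with a median of 11.3%, while the median of the rest was 2.28%. The high set, here called goblet-rich members, held 26 of 39 and 18 of 36 members in the libraries labelled fl/fl, and 38 of 103 and 76 of 122 in those labelled IEC-KO. Cells with Defa% of 20 or more, which were deeper by median total, had medians of 4.21%, 3.76%, 5.76% and 6.15%. The median of the low set lay below these and that of the high set above them. How much of the goblet RNA in those cells was their own was not tested, so their medians do not measure a background.

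**Figure D1:**
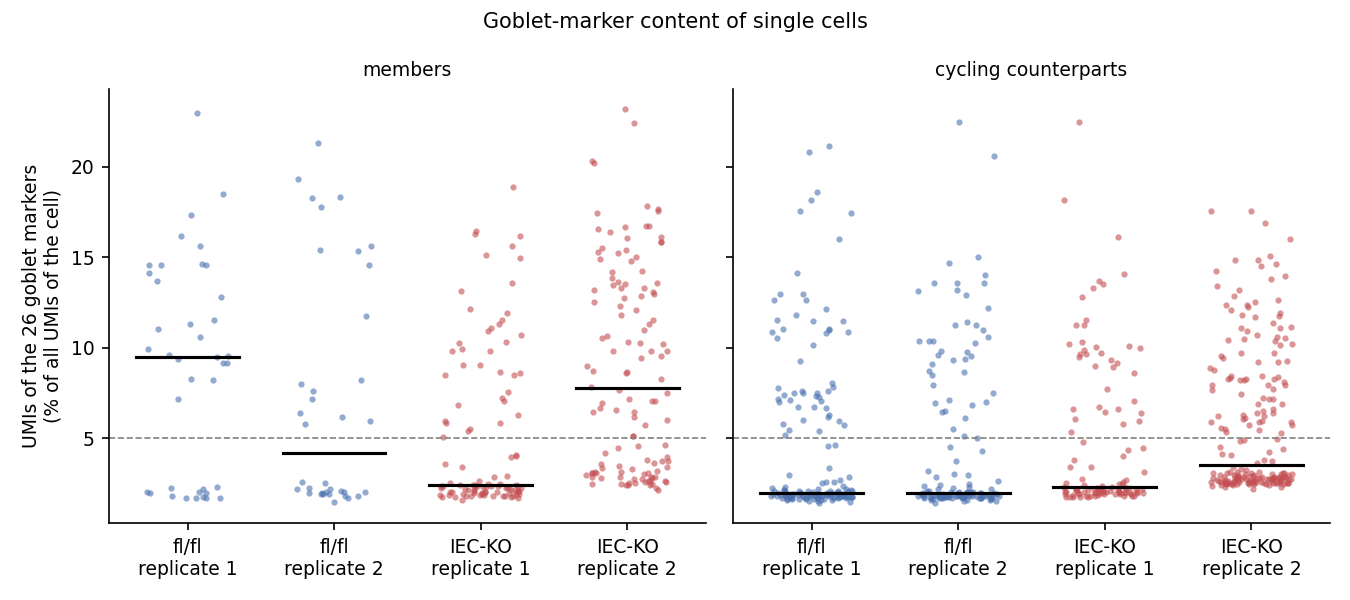
Share of a cell's UMIs that came from the 26 goblet markers (y axis, %), for each member (left) and each cycling counterpart (right) by library. Points are cells, black lines medians and the dashed line is 5%. In the members the medians were 9.51% and 4.16% in the libraries labelled fl/fl and 2.40% and 7.76% in those labelled IEC-KO, and cells stood on both sides of the line in every library.

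Some fate regulators differed between the low and the high set. In members with the goblet list under 5%, Hes1, the Notch effector of absorptive fate, stood at 72.03, 92.2, 118 and 119 raw CPM in the 4 libraries, and in those at 5% or more at 25.4, 34.1, 53.0 and 38.4. Atoh1, the regulator of secretory fate, stood at 32.7, 12.6, 30.3 and 25.8 in the former and at 79.1, 75.9, 72.5 and 89.9 in the latter. Spdef, which drives goblet and Paneth maturation, was at 19.6, 16.8, 44.1 and 46.5 in the former and at 119, 94.9, 114 and 128 in the latter. Each library showed the same order for these 3 regulators, which were chosen after their values were seen. Atoh1 and Spdef are themselves among the goblet markers that set the split, so their order is a description only. The list of 24 absorptive and Notch regulators as a whole did not divide this way. It summed to 1232, 1294, 1106 and 1163 raw CPM in the members low in markers of other types, a subset of the low set defined below, and to 1198, 1150, 1163 and 1021 in the goblet-rich members. The list of secretory regulators, which also holds Atoh1 and Spdef, summed to 138, 196, 225 and 275 in the former and to 596, 531, 650 and 674 in the latter. The 20 crypt stem cell markers together had a UMI in 97.4%, 94.4%, 97.1% and 100% of the members. They summed to 521, 635, 877 and 702 raw CPM there and to 834, 874, 853 and 803 in the cycling counterparts. In cells with Defa% of 20 or more the sums were 127, 123, 219 and 238. Lgr5, the receptor that marks crypt base stem cells, was seen in few: it had a UMI in 12.8%, 19.4%, 15.5% and 12.3% of the members, against 12.4%, 13.8%, 7.55% and 10.6% of the deeper cells with Defa% of 20 or more (median totals 45328.5, 51663, 11753 and 17427.5 UMIs). No order was read between these, since the depths differ. In the other cells with Defa% under 20, whose depth was nearer to that of the members (median totals 10459, 11324, 5737 and 8032.5), the share was 3.09%, 3.19%, 1.78% and 2.39%, below that of the members in each library. Immune transcripts were near 0, with 14 of the 19 immune markers at 0 in all members and 4, 4, 4 and 10 UMIs in the 4 libraries, and of 13 stromal markers 11 were at 0.

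Markers of other cells were unevenly spread over the members. At least 2% of UMIs came from the 30 enterocyte markers in 7 and 10 members of the libraries labelled fl/fl and in 5 and 3 of those labelled IEC-KO. At least 1% came from the 18 enteroendocrine markers in 0 and 0 against 8 and 9 members, and at least 10% from the 20 Paneth markers found in the files in 4 and 7 against 17 and 31. Doublet calls, made by likeness to simulated pairs of cells, covered 0 and 0 members in the libraries labelled fl/fl and 20 and 28 (19.4% and 23.0%) in those labelled IEC-KO. The share called was set in advance by the number of cells in a library: 2.92% and 2.58% of all cells in the former and 8.01% and 7.71% in the latter. The calls are therefore not compared between the genotypes. No barcode of a member was shared between libraries. With the members past any of these 3 limits or with goblet content of 5% or more left out, 110 members stayed (9, 10, 54 and 37), here called members low in markers of other types, and the main lists are also given for them.

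The share of all cells that were members overlapped between the genotypes. It was 1.07% (95% exact binomial interval 0.764 to 1.46) and 1.12% (0.785 to 1.55) in the libraries labelled fl/fl, and 1.03% (0.841 to 1.25) and 1.27% (1.05 to 1.51) in those labelled IEC-KO. These intervals cover counting error only. The difference of 0.0510 percentage points was smaller than the spread between the libraries labelled IEC-KO (two-sided exact permutation test over libraries, p = 1, n = 2 per genotype), a design in which the smallest possible p is 0.333. The answer depended on the base and the members counted. As a share of the cells with Defa% under 20, the members made up 2.61% and 3.06% in the libraries labelled fl/fl and 1.54% and 2.00% in those labelled IEC-KO. Members low in markers of other types made up 0.248% and 0.311% of all cells in the former and 0.540% and 0.384% in the latter, which also did not overlap (exact permutation p = 0.333) but lay the other way.

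Among cells that carried all 4 genes with Defa% under 20, the share below both cycling limits, that of the members, was higher in the libraries labelled IEC-KO. It was 19.5% (14.2 to 25.7) and 20.7% (14.9 to 27.5) in the libraries labelled fl/fl, and 48.4% (41.5 to 55.3) and 38.1% (32.8 to 43.7) in those labelled IEC-KO. The means were 20.1% ± 0.841 (SD, n = 2) and 43.2% ± 7.23 (n = 2), and the groups did not overlap (two-sided exact permutation test, p = 0.333, the smallest this design allows). Since the libraries differ in depth and a shallow cell shows fewer cycling genes, the share was also taken at equal depth: with every cell thinned to the lowest total of any cell (3843 UMIs) it was 53.2% and 49.1% against 75.9% and 68.3%. Among cells of 7500 to 10000 UMIs it was 16.3% and 28.6% against 34.2% and 29.2%, among those of 10000 to 15000 it was 20.4% and 18.9% against 43.9% and 40.4%, and among those of 15000 to 25000 it was 22.2% and 19.6% against 25% and 34.8%. The groups were thus well apart in the middle range and close in the others, where the lowest counts were 14 and 12 cells with all 4 genes in a library. In cells low in markers of other types it was 8.26% and 9.80% against 44.3% and 26.4%. The lost share lay mostly in mitosis: cells that failed the mitosis limit alone made up 58.5% and 59.2% of the cells with all 4 genes in the libraries labelled fl/fl and 42.7% and 43.1% in those labelled IEC-KO. The limits themselves passed close to many cells: 93 of the 300 members had 4 genes of either set with a UMI, and 19, 16, 34 and 45 cells just failed at 5.

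**Figure D2:**
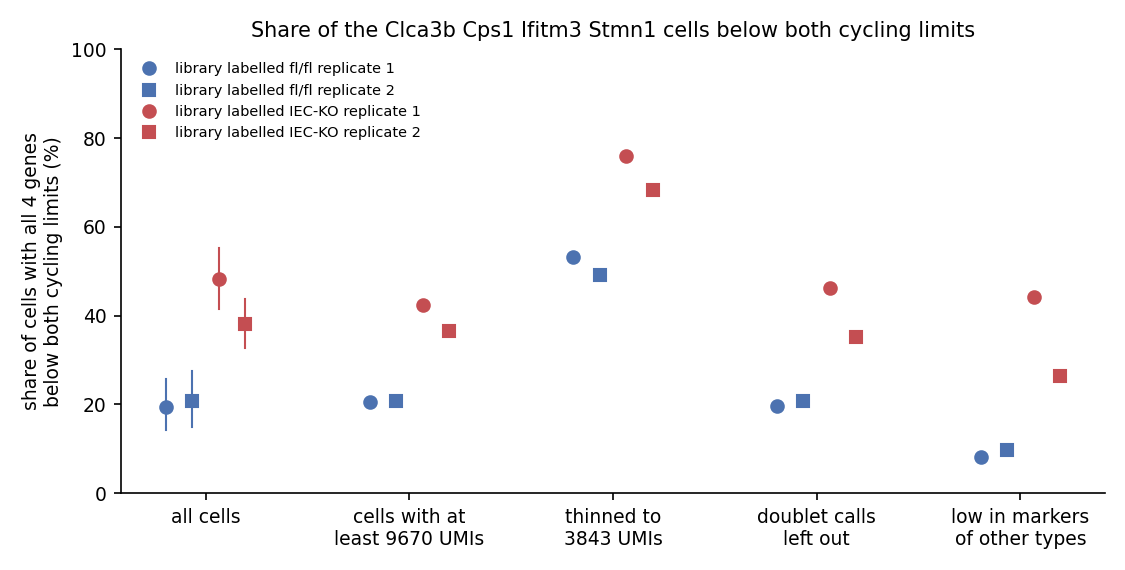
Share (y axis, %) of the cells with all 4 genes and Defa% under 20 that passed both cycling limits, for each library (blue, fl/fl; red, IEC-KO; circles replicate 1, squares replicate 2) counted in all cells, in cells with at least 9670 UMIs, in cells thinned to 3843 UMIs, without doublet calls and in cells low in markers of other types. Bars in the first group are 95% exact binomial intervals, and both libraries labelled IEC-KO lay above both labelled fl/fl in each group.

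Cells with all 4 genes numbered 200 and 174 in the libraries labelled fl/fl and 213 and 320 in those labelled IEC-KO, but they were a smaller share of the latter. They made up 13.4% and 14.8% of the cells with Defa% under 20 in the libraries labelled fl/fl and 3.19% and 5.25% in those labelled IEC-KO. The share rose with the depth of the cell, and at each range of depth it was lower in the libraries labelled IEC-KO. At 7500 to 10000 UMIs it was 8.04% and 11.0% against 4.69% and 4.18%, at 10000 to 15000 it was 13.3% and 12.7% against 8.60% and 8.75%, and at 15000 to 25000 it was 31.7% and 26.9% against 10.8% and 17.3%.

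For expression, UMIs were summed over the members of each library and the 4 sums compared in edgeR after TMM scaling. The CPM below are these scaled values, and the threshold was an adjusted p of 0.05 over all 5009 genes tested. In the members, 206 genes (4.11% of those tested) passed it. Of these, 59 (1.18%) were higher with the IEC-KO label and 147 (2.93%) were lower, while 817 had an unadjusted p under 0.05. The number of calls changed with the library left out: without the second labelled fl/fl 3 (0.0494%) were higher and 4 (0.0658%) lower, and without the first 44 and 128. In these fits a lone fl/fl library is assumed to vary like those labelled IEC-KO, and no called gene named here changed sign in them. In members low in markers of other types, 58 of 2500 genes passed (2.32%), 13 higher (0.52%) and 45 lower (1.8%), and 45 of these 58 were also called in all members. In goblet-rich members more genes were higher (45 of 3311, 1.36%) than lower (21, 0.634%). With fewer than 3 cycling genes, 151 of 2703 genes tested were higher and 158 lower, both larger shares than in all members. The median log2 fold change over all genes was -0.01. Xist, the RNA of the inactive X chromosome, was at 396 and 409 CPM in the libraries labelled fl/fl and 951 and 926 in those labelled IEC-KO (1.22), and the part of sex in the results was not tested.

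Slc7a5 itself (chromosome 8, 121881150 to 121907694, minus strand, GRCm38) could not check the labels. The 3′ kit counts the 3′ end of transcripts and the deleted exon is the first, so a transcript of the deleted allele would still be counted. The members held 2 and 2 UMIs in the libraries labelled fl/fl and 2 and 6 in those labelled IEC-KO, and in cells with Defa% of 20 or more the level was higher in the latter (3.89 and 4.85 against 0.965 and 0.812 raw CPM). Each direction given here therefore rests on the labels. Slc3a2, which encodes the heavy chain that partners the transporter, was at 69.0 and 87.2 CPM in members against 72.1 and 92.9 (log2 fold change 0.11, standard error 0.24, adjusted p = 0.886).

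Genes of the amino acid response were among the rises and gave 4 of the 12 largest. Of 39 ATF4 target genes, 24 could be tested, 15 rose and none fell, and the median log2 fold change was 1.39, also with Trib3 at its lower bound, against -0.01 for all genes and a background of 1.18% that rose. Trib3, a pseudokinase that restrains ATF4 signalling, had no UMI in 39 and 36 members of the libraries labelled fl/fl. It had 32 and 82 UMIs in those labelled IEC-KO, which is at least 18.3-fold higher relative to all UMIs when the absent group is put at 3 UMIs over both libraries (edgeR adjusted p = 0.000299). These UMIs lay in 22 and 43 members, so the gene was counted in many cells and not in a few. Ddit3, which encodes the stress factor CHOP, rose from 7.88 and 16.6 CPM to 69.3 and 84.8, and no library of one label reached the range of the other. Its log2 fold change was 2.67 (standard error 0.37, adjusted p = 0.000731). Atf5, a transcription factor of the same pathway, rose by 2.91 (standard error 0.37, adjusted p = 0.000423), from 13.8 and 8.31 CPM to 70.7 and 95.3. Stc2, a secreted glycoprotein, had a single UMI in each library labelled fl/fl and 18 and 33 in those labelled IEC-KO, a ratio of shares of UMIs of 12.3 (95% counting interval 3.22 to 103.9). Nupr1, a stress-induced chromatin protein and the most abundant gene of the list, rose from 311 and 341 CPM to 1316 and 1904 (log2 fold change 2.31, standard error 0.19, adjusted p = 7.8e-06).

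The enzymes of serine synthesis Phgdh, Psat1 and Psph, which belong to the ATF4 list, were among those that rose. Phgdh, the first enzyme of the pathway from glycolysis, went from 21.7 and 20.8 CPM to 115 and 88.1 (log2 fold change 2.22). Psat1, the aminotransferase of the next step, went from 9.86 and 12.5 CPM to 53.8 and 64.0 (2.41), and Psph, the phosphatase of the last, from 13.8 and 22.8 CPM to 45.3 and 55.2 (1.48). All of these rises passed the threshold, with the libraries of the genotypes apart. Of the enzymes downstream, Shmt2 (1.39) and Mthfd2 (1.38) of mitochondrial one-carbon metabolism passed it too, as did Asns, asparagine synthetase, with 59.1 and 35.3 CPM against 97.6 and 115 (1.18). Pck2, the mitochondrial enzyme that makes phosphoenolpyruvate, had 29.6 and 20.8 CPM against 53.8 and 84.0 (1.49), and Ddit4, an inhibitor of mTORC1, 21.7 and 18.7 against 52.3 and 56.0 (1.42). Pycr1, which makes proline, rose from 13.8 and 8.31 CPM to 34.0 and 40.8 (1.76), and Eif4ebp1, the translation repressor under mTORC1 control, from 126 and 114 CPM to 222 and 323 (1.20). Of 20 cytosolic aminoacyl-tRNA synthetases, which charge tRNAs with amino acids, Aars (1.01) and Eprs (0.92) rose, none fell, and the median was 0.30, against a background of 1.18% that rose. None of 10 amino acid transporters that could be tested passed the threshold in either direction (median -0.07).

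Further rises of the same size lay outside the list. Adm2, which encodes the peptide intermedin, had no UMI in the libraries labelled fl/fl and 25 and 62 in those labelled IEC-KO (at least 13.9-fold higher). Try5, a trypsin of a family of near-identical genes whose reads may be shared (at least 9.29-fold), and Angptl8, an inhibitor of lipoprotein lipase (at least 7.53-fold), were also absent from the former. Rbp4, the carrier of retinol in blood, rose from 3.94 and 8.31 CPM to 25.5 and 59.2 (log2 fold change 2.86).

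These rises were also seen in the cells with abundant defensin RNA, and alpha-defensin UMIs were counted in every member. Defa24, the most abundant Paneth gene, stood in the members at 11.8% and 19.2% of its level in cells with Defa% of 20 or more in the libraries labelled fl/fl and at 17.7% and 24.2% in those labelled IEC-KO. In the libraries labelled IEC-KO, Trib3 stood in the members at 51.9% and 81.5% of its level in those cells, Ddit3 at 54.4% and 72.8%, Atf5 at 69.3% and 89.5% and Stc2 at 131% and 122%. The rule holds down the level of Defa24 in the members. Lyz1, which encodes lysozyme and is a Paneth gene outside the rule, stood at 22.6% and 28.2% in the libraries labelled fl/fl and at 27.6% and 42.5% in those labelled IEC-KO. How much of the RNA of these genes in the members came from other cells was not tested.

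**Figure D3:**
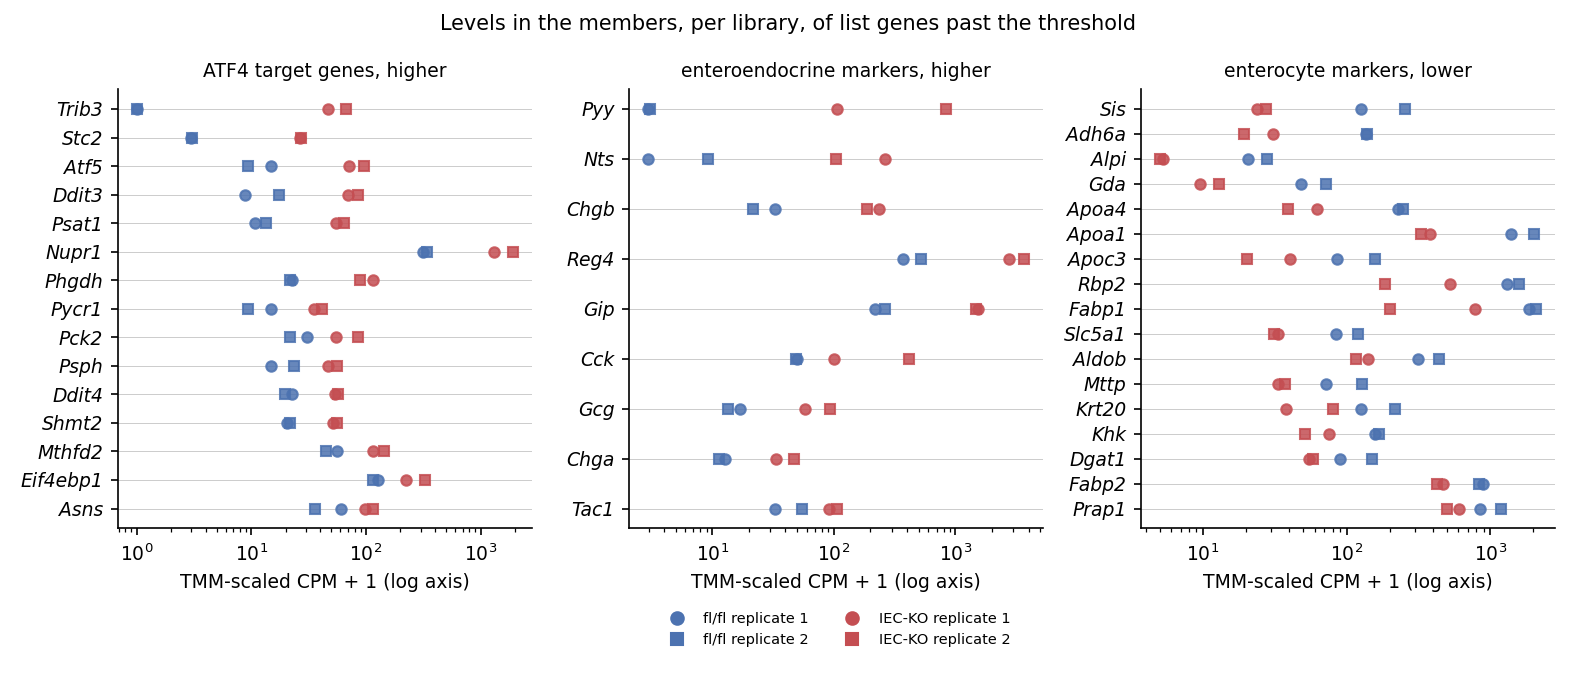
TMM-scaled CPM plus 1 (x axis, log scale) in the members, for each list gene past the threshold (y axis) in each library. Libraries labelled IEC-KO (red) lie to the right of those labelled fl/fl (blue) for the 15 ATF4 target genes and 9 enteroendocrine markers and to the left for the 17 enterocyte markers, without overlap in any of these genes.

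ATF4 acts on paired C/EBP-ATF elements, and the letters TGATGNAA were searched on both strands across 300 bases around each start site in the promoters of RefSeq (GRCm38.p6). The promoter table matched 14 of the 15 genes that rose, and 5 of the 14 (35.7%) held the letters, against 4.51% of the 27025 genes with a promoter there and 2.37% of the 3886 genes among them that were tested in the members. In the whole list of ATF4 targets the letters were in 12 of 33 promoters (36.4%), so they were about as frequent in the genes that rose as in the list. In Trib3 they lay after the start. The other 4 are shown on the strand of the gene, 5′ to 3′, with the matching letters in capitals, since these genes of amino acid synthesis and stress rose together in the members. The windows lie at chr6:7693210-7693277 (Asns, minus strand), chr7:126625528-126625625 (Nupr1, minus), chr14:55540118-55540215 (Pck2, plus) and chr11:120643799-120643896 (Pycr1, minus), before the start that RefSeq gives. The GENCODE model of Nupr1 (chromosome 7, 126623249 to 126630861) begins further upstream and takes in its window.
Asns: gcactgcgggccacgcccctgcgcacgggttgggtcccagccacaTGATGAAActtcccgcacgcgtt
Nupr1: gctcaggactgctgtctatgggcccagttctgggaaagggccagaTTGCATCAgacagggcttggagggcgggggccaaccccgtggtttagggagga
Pck2: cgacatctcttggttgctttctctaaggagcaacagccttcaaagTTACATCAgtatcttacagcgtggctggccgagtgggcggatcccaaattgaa
Pycr1: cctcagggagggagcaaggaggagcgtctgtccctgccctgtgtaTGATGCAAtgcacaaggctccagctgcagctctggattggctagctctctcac
The letters run forward in Asns and Pycr1 and on the opposite strand in Nupr1 and Pck2, and they begin 23, 103, 110 and 103 bases before the RefSeq start in Asns, Pycr1, Nupr1 and Pck2. A match is a description of these windows and not a site, and no match in the others says only that the letters are not there.

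Hormone transcripts of enteroendocrine cells were higher in the members of the libraries labelled IEC-KO, but they lay in few cells. Of 12 enteroendocrine markers tested, 9 rose (background 1.18%) and the median log2 fold change was 2.44. In goblet-rich members 3 of 9 rose (background 1.36%), with a median of 1.14, and in members low in markers of other types 1 of 4 (0.52%), with a median of 0.85. Pyy, the peptide YY of L cells, had 1 and 1 UMI in the libraries labelled fl/fl and 74 and 1040 in those labelled IEC-KO, a ratio of shares of UMIs of 267.7 (95% counting interval 73.9 to 2214). In the libraries labelled IEC-KO, 3 members held 79.7% and 97.2% of these UMIs. Nts, neurotensin, went from 1.97 and 8.31 CPM to 260.3 and 104 (log2 fold change 5.07, standard error 0.63, adjusted p = 0.000387), with 96.2% and 93.1% of its UMIs in 3 members. Gip, the glucose-dependent insulinotropic peptide of K cells, was at 219 and 264 CPM against 1532 and 1481 (2.64), with 81.6% and 72.6% in 3 members. Chgb, a granule protein of endocrine cells, went from 31.5 and 20.8 CPM to 233 and 185 (2.97), with 80.0% and 68.4% in 3 members. The hormone genes Cck, Gcg and Tac1 and the granule gene Chga rose as well, by 2.44, 2.43, 1.21 and 1.86. The 8 and 9 members with at least 1% of UMIs from the list held 52.0% and 48.0% of its UMIs in their libraries.

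Reg4, a secreted lectin of endocrine, goblet and Paneth cells, was an exception in its spread. It went from 369 and 523 CPM to 2740 and 3688 (log2 fold change 2.85, standard error 0.20, adjusted p = 2.12e-06) and had a UMI in all 103 and 122 members of the libraries labelled IEC-KO, with 19.5% and 13.9% of UMIs in 3 members. In the members Reg4 stood at 33.8% and 52.1% of its level in cells with Defa% of 20 or more in the libraries labelled fl/fl. In those labelled IEC-KO it stood at 38.3% and 55.7%. How much of this RNA came from other cells was not tested, so a UMI in every member does not show that each made it. Outside the members at 1% or more, the summed list, of which Reg4 is the most abundant gene, was at 1046 and 1153 raw CPM in the libraries labelled fl/fl and 2854 and 3993 in those labelled IEC-KO.

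Genes of mature enterocytes were lower in the members of the libraries labelled IEC-KO. Of 23 enterocyte markers tested 17 fell, none rose, and the median log2 fold change was -1.56, against a background of 2.93% that fell. Sis, the sucrase-isomaltase of the brush border, was at 124 and 255 CPM in the libraries labelled fl/fl and at 22.6 and 26.4 in those labelled IEC-KO, a fall by 2.91 on the log2 scale (standard error 0.33, adjusted p = 0.00017). Adh6a, an alcohol dehydrogenase, was at 136 and 137 CPM against 29.7 and 18.4 (-2.57, standard error 0.27, adjusted p = 7.78e-05). Apoa1, the main protein of high density lipoprotein, was at 1394 and 2012 CPM against 378 and 330 (-2.27), and Fabp1, a fatty acid binding protein, at 1849 and 2083 against 788 and 199 (-2.02). Among the others that fell, picked after their values were seen, were Alpi, intestinal alkaline phosphatase (-2.46), Gda, guanine deaminase (-2.44), Apoa4 (-2.31), Slc5a1, the sodium-glucose transporter (-1.68), and Mttp, which loads lipid onto lipoproteins (-1.502). The most abundant gene of the list, Reg3g, did not pass the threshold (4366 and 6840 CPM against 3397 and 5176, adjusted p = 0.418).

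Other genes among the largest falls had several roles. Reg1, a secreted lectin, was at 499 and 1157 CPM against 69.3 and 34.4 (-4.07, standard error 0.37, adjusted p = 1.9e-05). Gsta1, a glutathione transferase, was at 296 and 521 CPM against 48.1 and 28.8 (-3.47, standard error 0.29). S100g, the calcium-binding calbindin of absorptive cells, was at 84.8 and 83.1 CPM against 7.07 and 15.2 (-2.77). Gm15292, described with the Paneth markers, fell by 3.21. Also among the largest falls were Ces1f, a carboxylesterase (-2.75), Tgfbi, a matrix protein (-2.40), Slc26a6, an anion exchanger (-2.34), Papss2, which makes the sulphate donor PAPS (-2.33), and Creb3l3, a transcription factor of lipid metabolism in enterocytes (-2.53). Creb3l3 was the only one of 12 absorptive and Notch regulators tested that passed the threshold (background 2.93% lower).

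The enterocyte transcripts too were concentrated in some members. In the libraries labelled fl/fl, 3 members held 88.9% and 87.1% of the Reg1 UMIs, 79.3% and 77.7% of those of Gsta1, and 82.4% and 71.1% of those of Fabp1. The 7 and 10 members there with at least 2% enterocyte UMIs held 65.2% and 69.8% of the UMIs of the list, and the 5 and 3 such members in the libraries labelled IEC-KO held 36.1% and 15.4%. Among the members under 2%, the list stood at 5374 and 6976 raw CPM in the libraries labelled fl/fl and at 4574 and 5971 in those labelled IEC-KO, and the genotypes overlapped. Reg3g, which did not pass the threshold, made up 44.5% of the list over all members. The sums therefore lean on that gene and do not show whether the other genes of the list overlapped. In members low in markers of other types, 4 of 15 enterocyte markers tested fell (background 1.8%), with a median of -1.18. Without the second library labelled fl/fl, 1 of 25 fell (background 0.0658%).

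Paneth transcripts went both ways, with the limit that the reads of alpha-defensin genes, which resemble one another closely, may be shared between them. Of 20 Paneth markers tested, 10 fell (background 2.93%) and 4 rose (1.18%), with a median of -0.61. The rule limits the summed share of genes named Defa, so the values of these are a description, and of the 15 markers not named Defa 7 fell and 4 rose, with a median of -0.58. Gm15292, a defensin-related gene, was at 274 and 309 CPM against 25.5 and 35.2 (-3.21), Defa21 at 3861 and 5432 against 1152 and 1786 (-1.66), and Defa22 at 3909 and 5438 against 1543 and 2563 (-1.18). Pnliprp2, a pancreatic lipase-related protein, rose from 47.3 and 78.9 CPM to 184 and 245 (1.78), as did Nupr1. Defa24 did not pass the threshold, with 26857 and 46392 CPM against 44937 and 64123, ranges that overlap. In cells with Defa% of 20 or more the same genes changed in the same direction: the log2 fold change there was -3.98 for Gm15292, -2.54 for Defa21, -2.09 for Defa22 and 0.53 for Pnliprp2. The summed Paneth list took 70663 and 100415 raw CPM of the members' RNA in the libraries labelled fl/fl and 81182 and 101395 in those labelled IEC-KO, and whether it was made in the members or came from outside them was not tested. In members low in markers of other types, where the list itself is limited to under 10% of UMIs, it took 58854 and 67360 against 36173 and 47705 raw CPM, and 10 of 17 markers tested fell (background 1.8%) and 1 rose (0.52%), with a median of -1.36. Reg3a, a Paneth and enterocyte lectin, fell from 71.0 and 70.6 CPM to 12.7 and 16.8 (-2.20), and Retnlb, a goblet cell cytokine, rose from 15.8 and 20.8 CPM to 65.1 and 92.1 (2.13).

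Goblet markers showed little difference between the genotypes as a list. Of 25 tested, only Ramp1, a receptor subunit for calcitonin-related peptides, rose, from 189 and 147 CPM to 257 and 361 (0.89, adjusted p = 0.0243), none fell, and the median was 0.10, against a background of 1.18% that rose and 2.93% that fell. The most abundant gene, Spink4, was at 25416 and 24763 CPM against 24486 and 42247. The share of members with a high goblet content differed within the genotypes more than between them, as given above.

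Around Cps1, the genes of the citrulline and urea cycle included Pycr1, which rose as given above. Oat, ornithine aminotransferase and the most abundant gene of the list, was at 444 and 569 CPM against 420 and 345 (adjusted p = 0.248). Cps1 itself, chosen by the rule, was at 300 and 363 CPM against 362 and 296. Of 14 interferon and Ifitm genes tested, Ifitm3 was past the threshold, but each member had to hold a UMI of it, so its values are a description and depend on the depth of the members, which was lowest in the first library labelled IEC-KO. The remaining 13 were not, and B2m, the most abundant, was at 692 and 772 CPM against 632 and 622.

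The lists of progenitor state gave no call. None of 10 crypt stem cell markers tested passed the threshold, with a median of 0.56, nor did any of 23 cell cycle genes outside the rule (0.24), 6 secretory regulators (0.44) or 6 MHC class II genes (0.14). The log2 fold changes of the 10 stem cell markers were all above 0 after TMM scaling. Slc12a2, the most abundant of them and the basolateral chloride importer of crypt cells, was at 124 and 179 CPM against 216 and 213 (0.51, adjusted p = 0.201), and Cd74 at 1013 and 1074 against 1415 and 874. Of 20 genes of cholesterol and fatty acid synthesis Stard4, a sterol carrier, fell (-0.97, adjusted p = 0.0488), with a median of -0.34 and a background of 2.93%. Of 80 ribosomal protein genes Rpl12 rose (0.55, adjusted p = 0.0398), with a median of 0.36 and 78 above 0, and a background of 1.18%. Calls of 1 gene in lists of this size are near the background share. None of 12 early response genes of dissociation passed the threshold (0.16).

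To ask which differences set the members apart from their cycling counterparts, both sums of each library entered a single model with library as a block, and the genotype by population interaction was tested over 7688 genes. In all 46 genes passed (0.598%), and 736 had an unadjusted p under 0.05. For 9 genes (0.117%) the change was more positive in the members and for 37 (0.481%) more negative, and 42 of these 46 were also called in the members. The genes of enteroendocrine cells were among the former and those of enterocytes among the latter: 4 of 14 enteroendocrine markers were more positive and 11 of 27 enterocyte markers more negative. These enteroendocrine markers were Pyy, Nts, Chgb and Gip. With no library block none of them passed, at interactions about as large, and the 8 genes that passed were all more negative in the members. Without doublet calls only Nts of them passed. The lists also changed outside the 2 populations. In the other cells with Defa% under 20, 27 of 30 enterocyte markers fell (background 15.2%) and 12 of 18 enteroendocrine markers rose (14.4%). In cells with Defa% of 20 or more, 28 of 30 enterocyte markers fell (22.0%). There 4 of 18 enteroendocrine markers rose (22.0%) and 7 fell (22.0%). Reg1 stood at 499 and 1109 raw CPM in the members of the libraries labelled fl/fl against 67.9 and 31.2 in those labelled IEC-KO. In the cycling counterparts it stood at 58.7 and 54.4 against 68.2 and 46.8, so the groups overlapped there, and the interaction was -4.07 on the log2 scale. Fabp6, the ileal bile acid binding protein, stood at 1409.5 and 1302 against 493 and 213 in the members and at 196 and 154 against 277 and 172 in the counterparts (-2.40). Nts stood at 1.97 and 7.97 against 255 and 94.4 raw CPM in the members and at 4.23 and 10.0 against 12.4 and 8.58 in the counterparts (4.35).

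**Figure D4:**
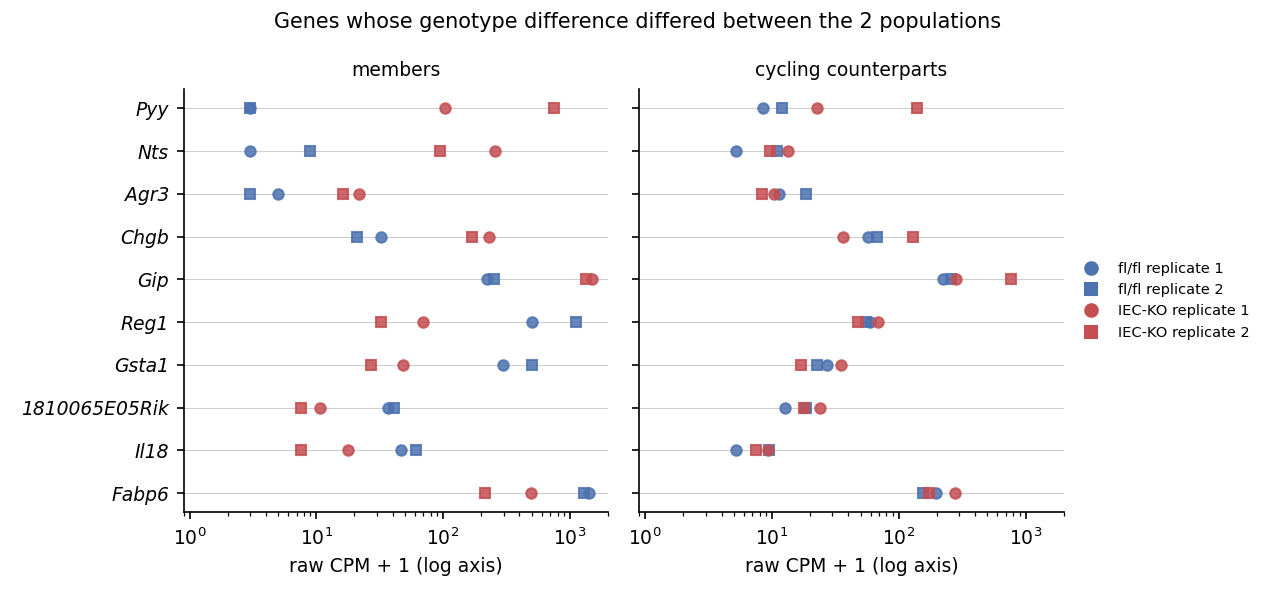
Raw CPM plus 1 (x axis, log scale) in the members (left) and in the cycling counterparts (right) for the 5 most positive and 5 most negative interactions with at least 40 UMIs, by library. In the members all 10 genes separate the genotypes, whereas in the counterparts Nts, Chgb, Reg1, Gsta1, 1810065E05Rik, Il18 and Fabp6 overlap.

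No ATF4 target gene was among the 46. Of 28 tested in the interaction none passed the threshold in either direction and the median was 0.04. In the counterparts themselves 21 of 30 tested rose (background 1.29%) with a median of 1.06, and Trib3 stood at 0.469 and 0.528 raw CPM against 35.1 and 42.1. Both populations come from the same libraries. Ddit4 (1.42 in the members, 0.18 in the counterparts), and Shmt2 (1.39 and 0.50) were called in the members only, but a difference between the populations was not called for either.

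The lists also stood at different levels within the members. The summed ATF4 targets were at 1382 and 1385 raw CPM in the goblet-rich members of the libraries labelled fl/fl and at 3911 and 4363 in those labelled IEC-KO. In members low in markers of other types they were at 1183 and 972 against 1710 and 2162. Nupr1 gave much of these sums, and without it they were at 1017 and 967 against 2108 and 2314 raw CPM in the former set and at 976 and 753 against 1189 and 1359 in the latter. The genotypes were apart in both, and 13 of 23 list genes tested rose in the goblet-rich members (background 1.36% higher, 1.99% in either direction) against 1 of 13 in the others (background 0.52% higher), where 9 and 10 members make up the libraries labelled fl/fl; the difference between the 2 sets was not tested. Trib3 had 21 and 72 UMIs in the goblet-rich members of the libraries labelled IEC-KO and 2 and 6 in the members low in markers of other types.

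**Figure D5:**
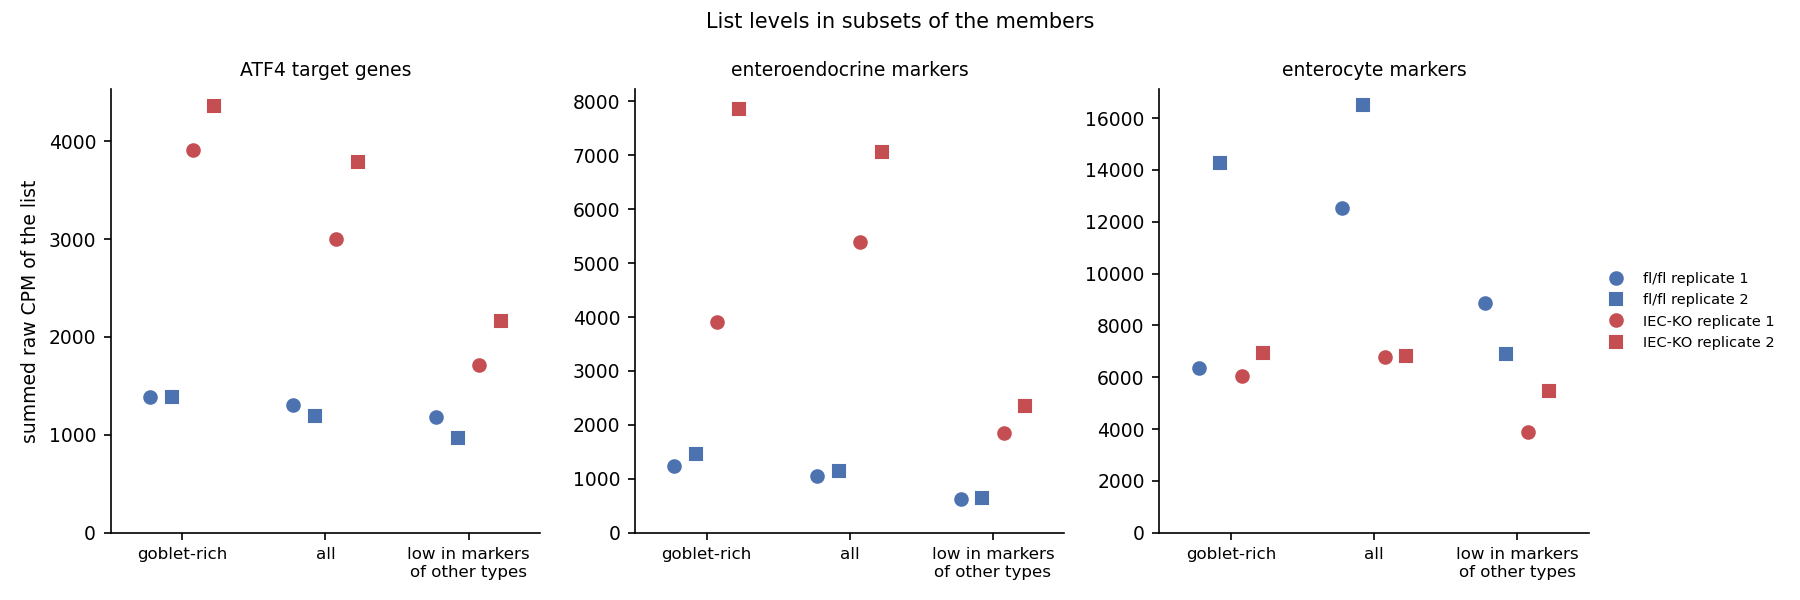
Summed raw CPM of 3 lists (y axis, from 0) in goblet-rich members, all members and members low in markers of other types, by library (blue, fl/fl; red, IEC-KO). The ATF4 and enteroendocrine lists separate the genotypes in each set, while the enterocyte list overlaps in the goblet-rich members (6362 and 14266 against 6036 and 6951). Reg3g made up 44.5% of the enterocyte list over all members.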

How the data were processed

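Per the file headers and labels, the authors deposited whole-number UMI counts per gene and cell barcode for each of the 4 libraries (27998 genes), after cell calling and without normalization. The submitters' notes name Cell Ranger 2.1.1 and mm10. All 26498 cells were kept. The members and gene lists were chosen with earlier results of these data known. UMIs were summed over members (506558, 502174, 721614 and 1376961 UMIs) and compared by quasi-likelihood F tests in edgeR 4.0.16 (filterByExpr, then TMM factors; Benjamini-Hochberg at 0.05). A standard error is the log2 fold change over the square root of F, and shares were compared by exact permutation over libraries. A ratio of summed UMIs has an exact 95% interval. Members were compared with other cells by value only. Named are the 12 largest rises and falls past the threshold with at least 40 UMIs and libraries apart, the 5 largest interactions each way, for each list the 4 largest calls and the most abundant gene, and genes leading the description. Doublets were kept; cells nearest simulated doublets (30 neighbours, 0.8% per 1000 cells) were left out as an alternative. Other alternatives were other scalings and filters, DESeq2 1.42.0, thinning to 4000 UMIs, stricter membership, a replicate block and each library left out. The limits on markers of other types were chosen after seeing the data. Positions are from GENCODE M21 (GRCm38). Scripts were tested on simulated data. A gene is not reported here.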

Additional observations from a re-analysis of the deposited data

Results flagged for a closer look

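For 46 genes the difference between the genotypes was itself different in the members and in their cycling counterparts (edgeR interaction with library as a block, adjusted over 7688 genes). The difference was more positive in the members for Pyy (log2 interaction 4.59), Nts (4.35), Agr3 (3.26), Chgb (2.34) and Gip (1.52). Agr3, a goblet protein disulphide isomerase, had 2, 1, 15 and 21 UMIs in the members of the 4 libraries. The difference was more negative in the members for Reg1 (-4.07), Gsta1 (-3.42), 1810065E05Rik (-2.67), Il18 (-2.59) and Fabp6 (-2.40). With the doublet calls left out, Reg1 stood at -4.62 (adjusted p = 3.2e-06), Fabp6 at -3.08 (1.45e-06) and Nts at 4.27 (0.0185), while Agr3 (3.33, 0.0898), Chgb (2.53, 0.0898), Gip (0.85, 0.747), Pyy (1.55, 0.875) and Il18 (-2.69, 0.112) did not pass the threshold. With no library block none of the 5 more positive genes passed it, while the interactions stayed about as large: Pyy stood at 4.47 (adjusted p = 0.693), Nts at 4.51 (0.175), Agr3 at 3.28 (0.159), Chgb at 2.31 (0.250) and Gip at 1.40 (0.296). Il18 stood at -2.54 (0.195) there. In the members and counterparts low in markers of other types, Reg1 stood at -3.18 (adjusted p = 0.000926), and Gsta1 (-2.42, 0.248), Fabp6 (-2.59, 0.179), 1810065E05Rik (-4.49, 0.171), Pyy (5.06, 0.733), Gip (0.41, 0.738) and Chgb (0.095, 0.986) did not pass the threshold. Nts, Agr3 and Il18 could not be tested there.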

How the results depend on the processing

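The number of genes called in the members (206) depended on the setting. The number of genes tested, 5009 in the main fit, changed as well, so the counts have no common base. It was 366 of 13269 with no filter on low counts, 134 of 3760 with at least 10 UMIs in every sum and 74 of 13269 with DESeq2. It was 30 of 2175 with at least 2 UMIs of each rule gene and 309 of 2703 with fewer than 3 cycling genes. In members low in markers of other types it was 58 of 2500, and in goblet-rich members 66 of 3311. With cells thinned 116 genes were called, and with a replicate block 324. Leaving out 1 library gave between 7 (without the second labelled fl/fl) and 339 (without the first labelled IEC-KO). The replicate numbers were not shown to pair the libraries (correlation of deviations -0.04). For the interaction (46 genes) the number was 113 with no filter, 15 with at least 10 UMIs, 8 with no library block, 4 with DESeq2, 11 with Defa% under 5, 11 with at least 2 UMIs, 15 without doublet calls and 4 in cells low in markers of other types. Leaving out 1 library gave 14 to 108. Of 575 values for the 40 called named genes, 472 stayed past the threshold, 103 did not and 0 changed sign, 36 of the 40 being lost without the second library labelled fl/fl. The share of cells that were members, 0.0510 percentage points higher in the libraries labelled IEC-KO, was lower there by thinning (-0.0757), with Defa% under 10 (-0.0260), without doublet calls (-0.148) and without the second library labelled IEC-KO (-0.0667). Leaving out 1 library gave -0.0667 to 0.169. Slc3a2 changed sign with Defa% under 5 (-0.00090), cells thinned (-0.23), without doublet calls (-0.029), without the first library labelled fl/fl (-0.041) and without the second labelled IEC-KO (-0.084). Leaving out 1 library gave -0.084 to 0.31 for it. The Pyy interaction was -1.60 with fewer than 3 cycling genes. Leaving out cells with 1% or more of goblet, enteroendocrine and tuft UMIs left 0 members and gave no value. The causes were not tested. The sums of the members held 502174 to 1376961 UMIs, and the 5009 genes tested were those with enough of them.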

Other observations

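Xist and Y-linked transcripts were both counted in the members of all 4 libraries. Xist had 201, 197, 672 and 1157 UMIs, and 4 Y-linked genes summed had 18, 24, 10 and 15. Over all cells of the libraries Xist had 8212, 8830, 31938 and 50496 UMIs, and the 4 Y-linked genes 1533, 1529, 838 and 1154. Mt1, which encodes a metallothionein, was at 393 and 264 raw CPM in the members with a goblet content under 5% of the libraries labelled fl/fl and at 1239.96 and 1237 in those labelled IEC-KO. In the goblet-rich members it was at 212 and 360 against 1023 and 1007, so the genotypes were apart in both sets. It was chosen after its values were seen.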
